A study of Rattus norvegicus with 19 samples.

Results

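The 36 genes described here code for peroxisomal proteins of rat liver. They comprise 24 genes of peroxisomal metabolism and 12 peroxins, the proteins that build the organelle and import its enzymes. A probe set counted as a gene's own where the array annotation assigned it to exactly 1 gene, and 34 of the 36 genes had one, among 13810 genes with one on either array type. The first array type held 34 such probe sets for 30 genes among 15866 probe sets that were not controls, and the second held 9 for 8 genes among 15276. Crot, Pex2, Pex5 and Phyh were on both. Acaa1a, a thiolase, was present only on a probe set shared with Acaa1b, and no probe set was assigned to Pipox alone, so neither was read. Where a gene had several probe sets, the brightest was taken.

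Adult rats were fasted overnight and then given a single intraperitoneal injection of pregnenolone-16α-carbonitrile (PCN) at 100 mg/kg or of corn oil alone, and their livers were collected 8 h afterwards. PCN is a steroid ligand of the pregnane X receptor of rodents, a nuclear receptor that controls drug-metabolising enzymes. The labels count 5 biological replicates for each treatment and mention no genetic modification, strain or sex. RNA of each animal was hybridised to both Affymetrix array types, so the tables share their animals, and corn oil replicate 2 had no array of the second type, which left 4 corn oil and 5 PCN arrays there. The series asked whether PCN acts on genes outside drug metabolism, and the comparison addressed here is that between PCN and corn oil for each peroxisomal gene.

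Peroxisomes oxidise fatty acids that mitochondria handle poorly, among them very long-chain and branched ones, and shorten the side chain of bile acid precursors. They also house oxidases that release hydrogen peroxide, which catalase removes, and the first steps of ether lipid synthesis. Their enzymes are made in the cytosol and imported by the receptors Pex5 and Pex7, which read different targeting signals. In rodent liver many of these genes are induced by PPARα, a nuclear receptor for fatty acids that acts as a partner of retinoid X receptors and is active in fasting.

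On the first array type 3 peroxisomal genes were lower after PCN and 0 were higher among the 29 tested (limma, adjusted p under 0.05). Those were Crot, Hao2 and Uox, all of them metabolic. Across that array type 0.945% of the 11106 probe sets tested were lower by the same rule and 2.31% were higher, and at an unadjusted p under 0.05 the genes counted 7 lower and 0 higher, where all probe sets gave 6.71% lower and 11% higher. On the second array type 1 of 8 tested peroxisomal genes was higher, the import receptor Pex7, and 0 were lower, against 3.76% and 1.64% of 10693 probe sets. At an unadjusted p under 0.05 the same 8 genes counted 1 higher and 2 lower, and all probe sets of that type 13.2% higher and 14.1% lower. All values are deposited log2 expression values, and differences are PCN minus corn oil on that scale. In whole liver, fewer cells of a type and less RNA per cell cannot be told apart.

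**Figure D1:**
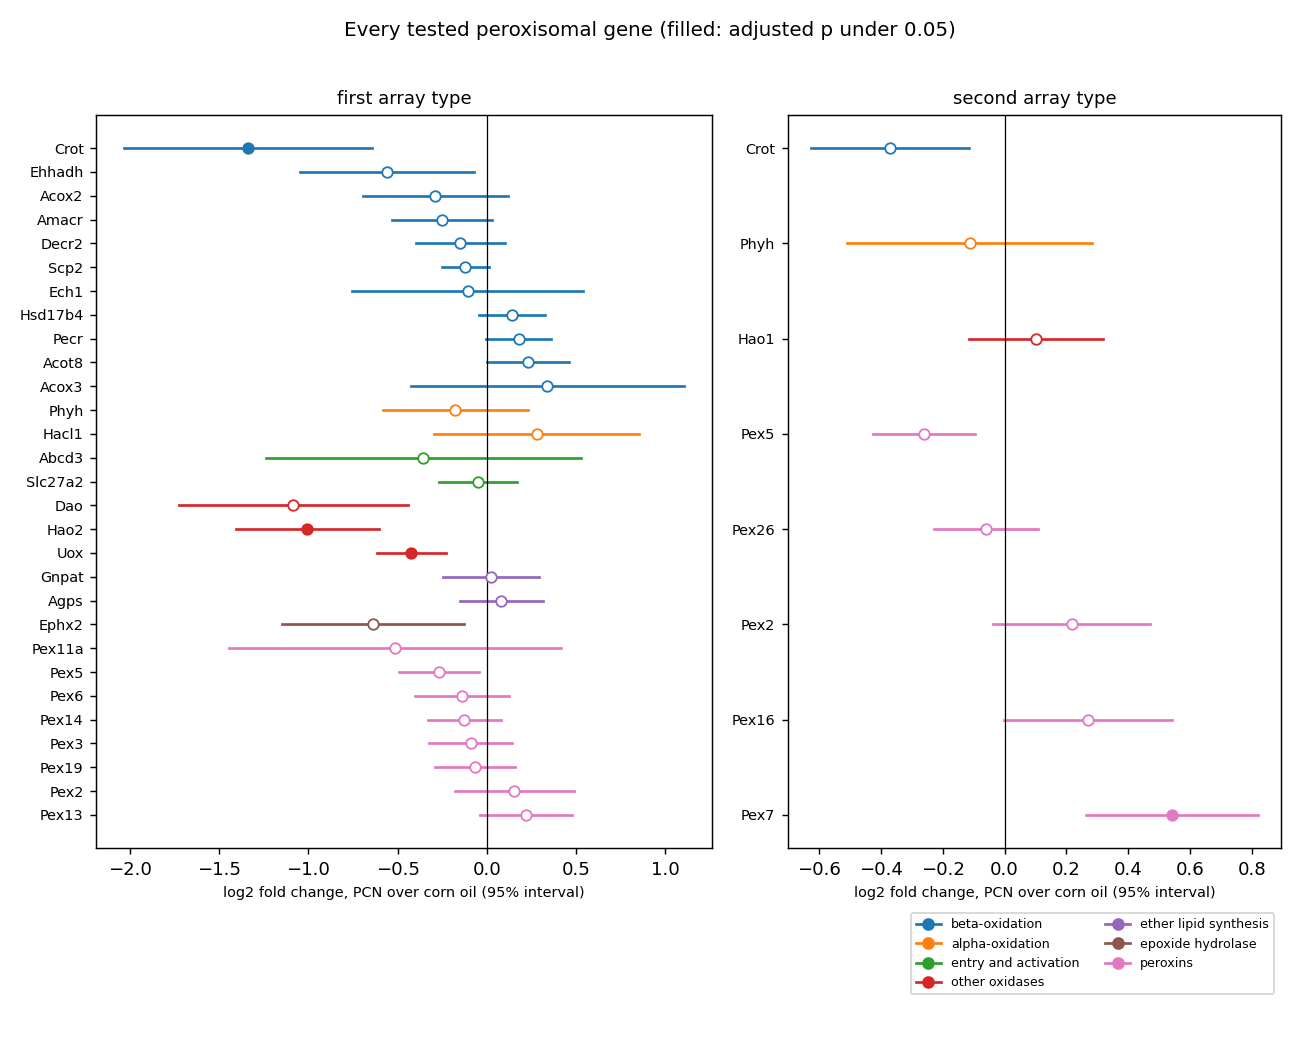
Each point is the log2 fold change (PCN over corn oil) of 1 tested peroxisomal gene with its 95% interval, for 29 genes of the first array type (left, n = 5 and 5) and 8 of the second (right, n = 5 PCN and 4 corn oil), coloured by role. Filled points passed an adjusted p of 0.05 in limma: Crot, Hao2 and Uox lie left of 0 on the first type and Pex7 lies right of 0 on the second.

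Some features of the arrays bear on every value. Corn oil replicate 2 stood apart on the first type, with a mean correlation to its group of 0.957 against 0.974 to 0.983 for the other 9 arrays. The arrays of the first type also fell into a set of wider values (corn oil replicates 1 and 2 and PCN replicates 1, 3, 4 and 5, standard deviation over all probe sets 1.99 to 2.06) and a set of narrower ones (corn oil replicates 3, 4 and 5 and PCN replicate 2, 1.92 to 1.96). These sets overlap the treatment groups in part, so a term for them, without corn oil replicate 2, is given beside the calls below. Corn oil replicate 1 is then the only corn oil array of the wider set, and PCN replicate 2 the only PCN array of the narrower. The fit with that term therefore rests largely on those arrays. On the second type the standard deviation over all probe sets was 1.45 to 1.49 in corn oil and 1.48 in PCN replicate 5. In PCN replicates 1 to 4 it was 1.52 to 1.56. Width there nearly coincided with treatment, and no term for it was fitted, so its part in the second-type values was not tested. As a check of the treatment, 7 of 9 pregnane X receptor targets were higher on the first type, with Alas1, the first enzyme of heme synthesis, at 1.74 ± 0.14 (SE, adjusted p = 0.000119) and Cyp3a23-3a1, a drug-metabolising cytochrome P450, at 0.65 ± 0.10 (adjusted p = 0.00543). The related cytochrome Cyp3a18 was at 1.31, the P450 reductase Por at 1.27 and the drug exporter Abcb1a at 1.03 (adjusted p = 0.00384, 0.000751 and 0.00543, limma). Hepatocyte markers averaged 14.0 to 14.3 on every array of the first type, and none of 7 was called (limma, 1 higher and 0 lower at an unadjusted p under 0.05, against 11% and 6.71% of all probe sets). The smallest p values among them were those of Fgb (0.29, adjusted p = 0.149) and Ttr (-0.05, adjusted p = 0.610). Calls over all probe sets split 256 higher to 105 lower on the first type and 402 to 175 on the second. On the first type this split became 256 to 176 after trimmed mean scaling, 247 to 181 after quantile normalization and 214 to 252 after centring on 100 probe sets common to both array types. On the second it became 518 to 72 after median scaling, 397 to 478 after trimmed mean scaling and 210 to 6283 after that centring, shifting the overall median from -0.03 to -0.31.

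Beta-oxidation genes formed the largest group, with 11 tested on the first array type, 1 lower, 0 higher and a median log2 fold change of -0.12 against 0.00 for all probe sets (limma, 2 lower and 0 higher at an unadjusted p under 0.05, against 6.71% and 11% of all probe sets). The gene called was Crot, carnitine octanoyltransferase, which links chain-shortened fatty acids to carnitine so that they can leave the peroxisome. Crot read 9.95, 10.72, 11.41, 10.68 and 11.11 in corn oil replicates 1 to 5 and 8.47, 9.68, 10.09, 9.10 and 9.84 in PCN replicates 1 to 5. PCN replicate 3 lay above corn oil replicate 1, so the groups overlapped, and the other 4 PCN arrays lay below every corn oil array. The means were 10.78 ± 0.55 and 9.44 ± 0.65 (SD, n = 5 each), a level 2.53-fold lower after PCN (a difference of -1.34 ± 0.32 SE, 95% interval -2.03 to -0.65, adjusted p = 0.0431, limma). The call was lost under 12 of 24 alternatives, among them the absence of any single array other than corn oil replicate 1 and PCN replicate 3 (adjusted p 0.0528 to 0.104), and the log2 fold change stayed between -1.62 and -0.97 throughout. With the term for the sets of arrays and without corn oil replicate 2 it was -0.97 (adjusted p = 0.219).

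A dimmer Crot probe set of the first type gave -0.99 ± 0.44 (SE, adjusted p = 0.271, limma). Corn oil replicate 2 read 8.02 there, against 9.32 to 10.67 for the remaining corn oil arrays and 8.05 to 9.20 after PCN. On the second type Crot read 6.08, 6.33, 6.24 and 6.31 in corn oil replicates 1, 3, 4 and 5 and 5.82, 6.21, 5.90, 5.49 and 5.95 in PCN replicates 1 to 5. Only PCN replicate 2 reached into the corn oil range there. The log2 fold change was -0.37 ± 0.12 (SE, adjusted p = 0.0815, n = 5 PCN and 4 corn oil, limma). All 3 Crot probe sets were thus lower on average after PCN, and 1 of them passed the threshold.

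**Figure D2:**
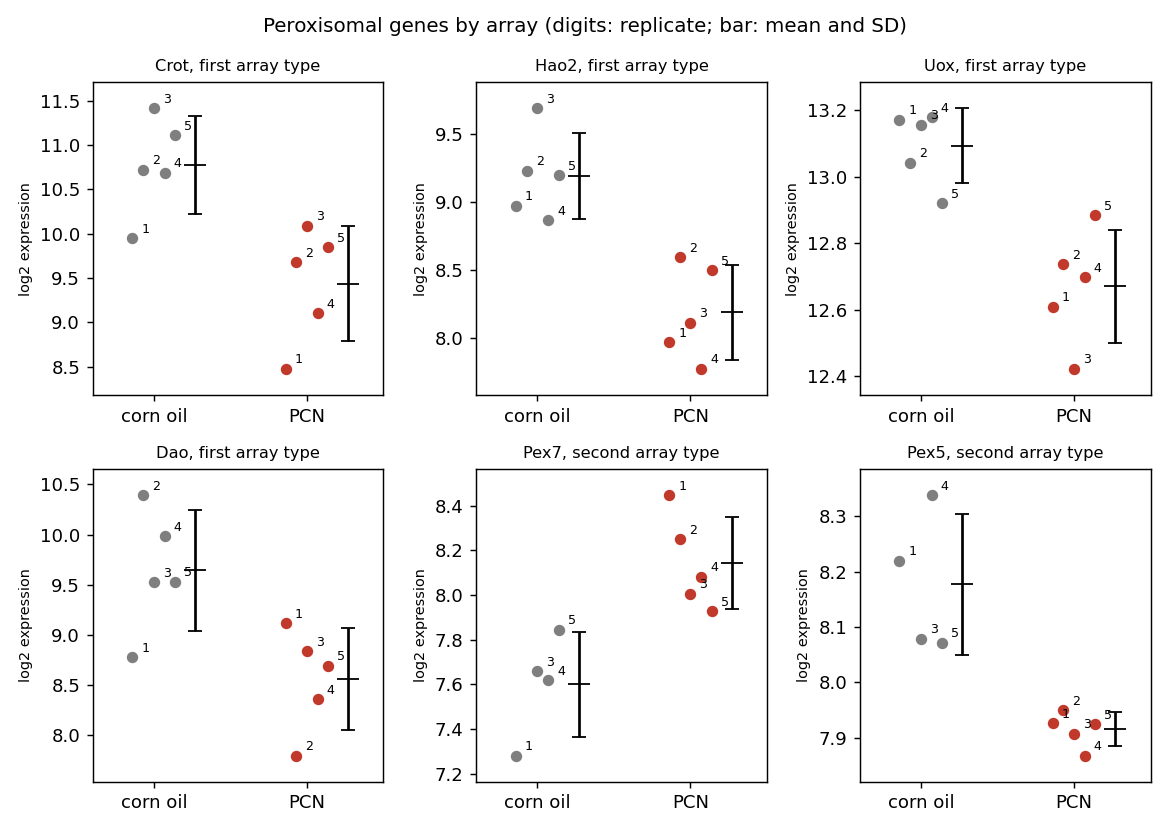
Log2 expression (vertical axis) of 6 peroxisomal genes on each array, grouped by treatment (horizontal axis), with the replicate number beside each point and the mean ± SD beside each group. The PCN arrays lie below all corn oil arrays for Hao2, Uox and Pex5 and above them for Pex7, while for Crot and Dao corn oil replicate 1 lies within the PCN range.

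None of the other 10 beta-oxidation genes passed the threshold. Ehhadh, the bifunctional enzyme of the classic peroxisomal pathway, had the next lowest log2 fold change, -0.56 ± 0.22 (SE, adjusted p = 0.218, limma). Its arrays ran from 11.20 to 12.17 in corn oil and from 10.63 to 11.82 after PCN, and its groups overlapped. Hsd17b4, the bifunctional enzyme for branched chains and bile acid precursors, differed by 0.14 (adjusted p = 0.429). Acox2 and Acox3, oxidases of branched substrates, differed by -0.29 (adjusted p = 0.459) and 0.34 (adjusted p = 0.661), the latter being the highest of the group. The value of Acox3 rests on 1 array: corn oil replicate 2 read 7.99 and the other 9 arrays 9.67 to 10.17, and without that array its log2 fold change was -0.069 (adjusted p = 0.774).

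The racemase Amacr (-0.25), the reductase Decr2 (-0.15), the thiolase and lipid carrier Scp2 (-0.12) and the isomerase Ech1 (-0.11) had small negative log2 fold changes. The reductase Pecr (0.18) and the thioesterase Acot8 (0.23) had small positive ones. Their intervals all included 0, and the adjusted p values of these 6 genes ran from 0.283 to 0.879 (limma). Ech1 was spread widely within both groups, 11.98 to 13.19 in corn oil and 11.90 to 13.17 after PCN. Scp2 was the tightest of all 29 genes, with a pooled within-group SD of 0.09, and its dimmer probe set gave -0.06.

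The oxidases outside beta-oxidation carried the other calls of the first array type. Of 3 tested, 2 were lower and 0 higher, all 3 were lower at an unadjusted p under 0.05 (6.71% of all probe sets were), and their median log2 fold change was -1.01. Hao2 codes for the hydroxyacid oxidase of long-chain substrates. It read 8.98, 9.23, 9.69, 8.87 and 9.20 in corn oil replicates 1 to 5 and 7.97, 8.59, 8.11, 7.77 and 8.50 in PCN replicates 1 to 5. Every PCN array lay below every corn oil array. The means were 9.19 ± 0.32 and 8.19 ± 0.35 (SD, n = 5 each), 2.01-fold lower after PCN (a difference of -1.01 ± 0.18 SE, 95% interval -1.41 to -0.60, adjusted p = 0.0143, limma). Hao2 passed under 23 of 24 alternatives. The exception was the fit with the term for the sets of arrays and without corn oil replicate 2, where it was -0.78 (adjusted p = 0.0807).

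Uox, urate oxidase, turns uric acid into the precursor of allantoin and forms the crystalline core of rodent liver peroxisomes. It read 13.17, 13.04, 13.16, 13.18 and 12.92 in corn oil replicates 1 to 5 and 12.61, 12.74, 12.42, 12.70 and 12.88 in PCN replicates 1 to 5. The groups did not overlap, and the gap between PCN replicate 5 and corn oil replicate 5 was narrow. The means were 13.09 ± 0.11 and 12.67 ± 0.17 (SD, n = 5 each), 1.34-fold lower after PCN (a difference of -0.42 ± 0.09 SE, 95% interval -0.62 to -0.23, adjusted p = 0.0266, limma). The call was lost without any one of corn oil replicates 1, 3 and 4 or PCN replicates 1, 3 and 4 (adjusted p 0.0509 to 0.0785). It was also lost with the term for the sets of arrays and without corn oil replicate 2, where the difference was -0.44 (adjusted p = 0.0778, limma). Hao2, Uox and Pex5 were the 3 peroxisomal genes of the first type whose groups did not overlap, all lower after PCN, against 2.05% of all probe sets tested, and 0 lay wholly above corn oil, against 3.99%.

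Dao, D-amino acid oxidase, had a log2 fold change close to that of Hao2 and did not pass. It read 8.78, 10.39, 9.53, 9.98 and 9.53 in corn oil replicates 1 to 5 and 9.12, 7.79, 8.83, 8.36 and 8.69 in PCN replicates 1 to 5. Only corn oil replicate 1 lay within the PCN range. The log2 fold change was -1.08 ± 0.30 (SE, 95% interval -1.73 to -0.44, adjusted p = 0.0697, limma), and it passed under 3 of 24 alternatives, with an adjusted p of 0.0269 without corn oil replicate 1. Hao1, the glycolate oxidase related to Hao2, was measured on the second type alone. It read 11.55 to 11.80 in corn oil and 11.63 to 11.90 after PCN, a log2 fold change of 0.10 (95% interval -0.12 to 0.32, adjusted p = 0.519, limma). Hao1 and Hao2 sat on different array types, so the difference between them was not tested.

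The promoters of the genes that moved are shown because PPARα, retinoid X receptors and the pregnane X receptor all bind pairs of the hexamer AGGTCA or close variants, and they show which windows hold it. Each window spans 300 bases around the annotated start of the gene in RefSeq (assembly GRCr8), written along the gene's strand with AGGTCA or its reverse complement TGACCT in capitals. Uox lies at chr2:238146880-238147179 on the plus strand, Hao2 at chr2:188913084-188913383 on the minus strand, Crot at chr4:26052874-26053173 on the plus strand and Pex7 at chr1:16466255-16466554 on the minus strand.
Uox: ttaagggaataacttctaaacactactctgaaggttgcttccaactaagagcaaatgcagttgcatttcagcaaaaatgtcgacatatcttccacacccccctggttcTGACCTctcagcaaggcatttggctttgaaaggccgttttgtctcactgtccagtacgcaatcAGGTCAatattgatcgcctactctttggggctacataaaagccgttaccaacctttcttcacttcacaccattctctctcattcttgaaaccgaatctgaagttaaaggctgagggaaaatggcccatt
Hao2: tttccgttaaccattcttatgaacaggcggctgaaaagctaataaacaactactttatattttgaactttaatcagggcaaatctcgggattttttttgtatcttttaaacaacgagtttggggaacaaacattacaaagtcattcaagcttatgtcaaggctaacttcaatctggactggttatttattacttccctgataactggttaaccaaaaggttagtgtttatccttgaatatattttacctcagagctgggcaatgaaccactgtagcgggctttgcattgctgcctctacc
Crot: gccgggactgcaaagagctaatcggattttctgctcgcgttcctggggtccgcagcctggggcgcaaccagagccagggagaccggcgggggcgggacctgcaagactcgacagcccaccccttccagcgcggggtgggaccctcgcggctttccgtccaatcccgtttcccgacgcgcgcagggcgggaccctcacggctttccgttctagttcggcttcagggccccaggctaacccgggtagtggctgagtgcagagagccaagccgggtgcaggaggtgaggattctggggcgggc
Pex7: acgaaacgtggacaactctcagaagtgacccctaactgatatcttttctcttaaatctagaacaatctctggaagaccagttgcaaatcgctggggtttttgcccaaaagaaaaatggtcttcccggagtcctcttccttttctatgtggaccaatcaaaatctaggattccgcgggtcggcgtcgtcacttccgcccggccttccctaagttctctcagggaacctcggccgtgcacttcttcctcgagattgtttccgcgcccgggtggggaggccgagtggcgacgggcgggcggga

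The Uox window holds 2 such hexamers, the reverse one starting at -142 and the forward one at -79, counted from the annotated start as 0. The windows of Hao2, Crot and Pex7 hold none. A promoter window was found for 32 of the 36 genes, and those of Ech1, Ephx2, Pex2 and Pex6 are named only. Of the 32 windows 7 (21.9%) held the hexamer on either strand, those of Acot8, Agps, Amacr, Dao, Hsd17b4, Slc27a2 and Uox, against 5415 of 33469 (16.2%) of all rat windows of this length. Of these 7 genes, Uox was the one called. AGGTCA as a direct repeat spaced by 1 base was in 18 of all windows (0.0538%), spaced by 3 bases in 8 (0.0239%) and as an everted repeat spaced by 6 bases in 2 (0.00598%), and in 0 of the 32. These are exact matches of letters in short windows, and degenerate or distant sites were not searched.

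The remaining metabolic genes were not called. Ephx2, the soluble epoxide hydrolase, is found in peroxisomes and cytosol. It read 8.43, 8.49, 9.08, 8.90 and 9.01 in corn oil replicates 1 to 5 and 7.69, 8.70, 8.55, 7.47 and 8.31 in PCN replicates 1 to 5, a log2 fold change of -0.64 ± 0.23 (SE, adjusted p = 0.175, limma). The groups overlapped through PCN replicates 2 and 3, and PCN replicates 1 and 4 were the lowest. In alpha-oxidation, which removes a single carbon from branched fatty acids, the hydroxylase Phyh differed by -0.18 on the first type and -0.11 on the second, and the lyase Hacl1 by 0.28, none of them called (adjusted p 0.629 to 0.709, limma).

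For entry into the organelle, the membrane transporter Abcd3 differed by -0.36 (adjusted p = 0.696) and the acyl-CoA synthetase Slc27a2 by -0.05 (adjusted p = 0.832, limma). For Abcd3, corn oil replicate 2 read 11.53 and the remaining corn oil arrays 9.06 to 9.65, and without that array its log2 fold change was 0.087. The ether lipid enzymes Gnpat and Agps differed by 0.02 (95% interval -0.24 to 0.29) and 0.08 (-0.15 to 0.31). Gnpat read 8.30 to 8.95 in corn oil and 8.50 to 8.92 after PCN. No alpha-oxidation, entry or ether lipid gene had an unadjusted p under 0.05 on either array type.

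Peroxins of the first array type numbered 9, of which 8 were tested, 0 were called and 1 was lower at an unadjusted p under 0.05 (limma, 6.71% of all probe sets were). Their log2 fold changes ran from -0.51 to 0.22, with 6 negative and 2 positive. Pex5, the receptor for most imported enzymes, was the 1 with an unadjusted p under 0.05. It read 11.08, 11.44, 11.31, 11.07 and 11.17 in corn oil replicates 1 to 5 and 11.05, 10.70, 11.02, 10.91 and 11.05 in PCN replicates 1 to 5. The groups did not overlap, by a small margin, and the log2 fold change was -0.27 ± 0.10 (SE, adjusted p = 0.197, limma).

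The second array type gave Pex5 values of 8.22, 8.08, 8.34 and 8.07 in corn oil replicates 1, 3, 4 and 5 and 7.93, 7.95, 7.91, 7.87 and 7.92 in PCN replicates 1 to 5. Again all PCN arrays were lower, with a log2 fold change of -0.26 ± 0.08 (SE, adjusted p = 0.0640, limma). The near-equal sizes come from separate probe sets on RNA of the same animals. Among all probe sets of the second type 5.32% were lower with no overlap and 5.06% higher. Pex5 passed under 7 of 21 alternatives on the second type, and under 1 of 24 on the first, centring on the common probe sets.

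Pex7 is the receptor for the smaller class of enzymes that carry a signal near the amino end, among them Agps, Phyh and the thiolase. It read 7.28, 7.66, 7.62 and 7.84 in corn oil replicates 1, 3, 4 and 5 and 8.45, 8.25, 8.01, 8.08 and 7.93 in PCN replicates 1 to 5. Every PCN array lay above every corn oil array, and corn oil replicate 1 was the lowest. The means were 7.60 ± 0.23 (SD, n = 4) and 8.14 ± 0.21 (SD, n = 5), 1.46-fold higher after PCN (log2 fold change 0.54 ± 0.13 SE, 95% interval 0.26 to 0.82, adjusted p = 0.0345, limma). The call was lost without any one of corn oil replicates 1, 3 and 4 or PCN replicates 1, 2, 3 and 4 (adjusted p 0.0593 to 0.0945), and it passed under every scaling tried, although centring on the common probe sets lowered it to 0.26. Pex7 had no probe set of its own on the first type, and no term for array width was fitted on the second.

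The other peroxins were not called on either type. Pex11a, which drives peroxisome division and proliferation, had the lowest log2 fold change of the first type, -0.51 (95% interval -1.44 to 0.42, adjusted p = 0.580, limma), and the widest spread of all 29 genes. It ran from 8.56 to 10.50 in corn oil and from 7.87 to 9.98 after PCN, and with the term for the sets of arrays and without corn oil replicate 2 it was 0.10. The docking proteins Pex13 and Pex14 differed by 0.22 and -0.13, the export motor subunit Pex6 by -0.14, and Pex3 and Pex19, which place membrane proteins, by -0.09 and -0.07. Pex2, a ubiquitin ligase subunit of the importer, differed by 0.15 on the first type and 0.22 on the second (adjusted p = 0.647 and 0.243, limma). Pex16, which also acts in membrane assembly, differed by 0.27 on the second type (adjusted p = 0.184), with -0.04 on its dimmer probe set, and Pex26, the membrane anchor of the export motor, by -0.06. Pex10, the other ubiquitin ligase subunit measured, lay below the filter on dim probe sets, with means of 6.05 in corn oil and 5.78 after PCN.

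**Figure D3:**
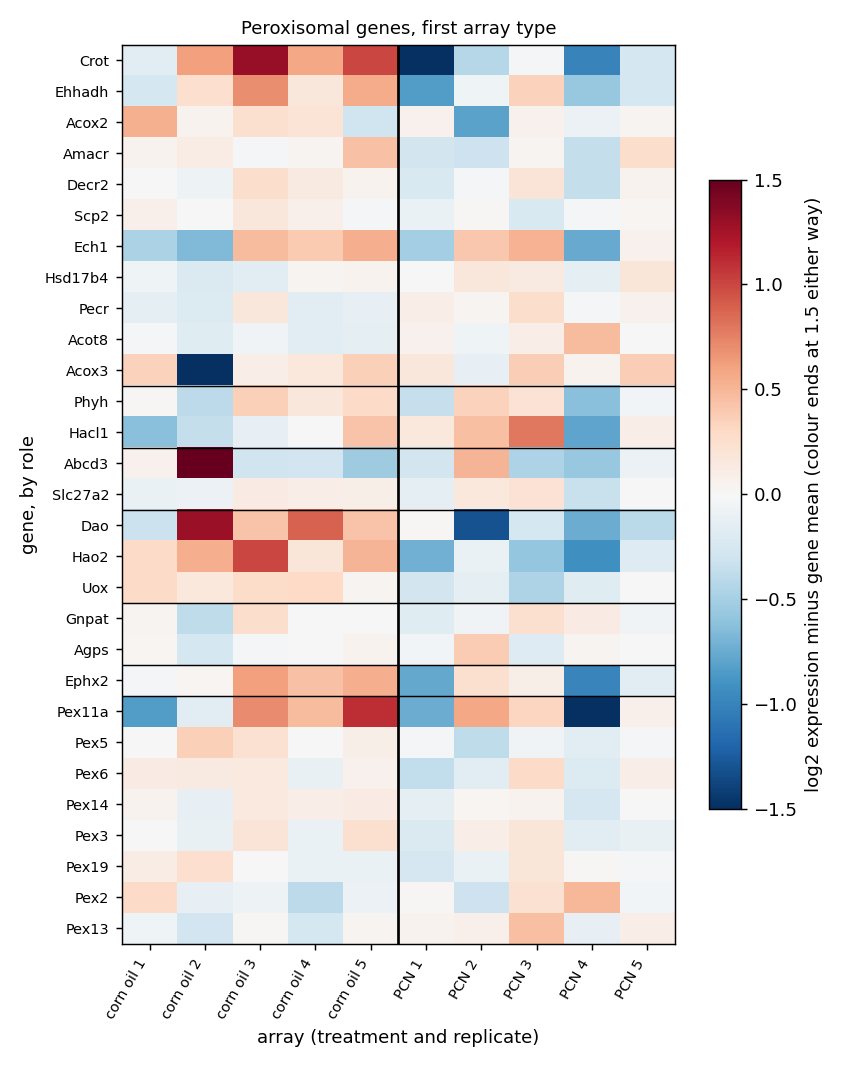
Log2 expression of the 29 tested peroxisomal genes of the first array type (vertical axis, in blocks by role) on 10 arrays (horizontal axis), each minus the gene's mean over the arrays, with red above and blue below. Crot, Dao, Hao2 and Uox are mostly red in corn oil and blue after PCN, while Ech1, Pex11a, Hacl1 and Phyh vary within both groups.

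Within the groups the arrays did not vary evenly. Of the 29 genes, PCN replicate 4 was the lowest PCN array for 14 and PCN replicate 3 the highest for 15. Corn oil replicate 2 was the lowest of its group for 12 and corn oil replicate 3 the highest for 12. The pooled within-group SD had a median of 0.33 over the 21 metabolic genes and 0.18 over the 8 peroxins, against 0.17 over all probe sets tested. Beside Pex11a (0.82), the widest were Abcd3 (0.78), Acox3 (0.67), Crot (0.60), Ech1 (0.57), Dao (0.56) and Hacl1 (0.50), so the median metabolic gene varied more within groups than the median probe set.

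Metabolic genes and peroxins were then set side by side, without a test, since the genes had been chosen with results of these data known. On the first array type the 21 metabolic genes had a median log2 fold change of -0.15 with 14 negative and 7 positive, and the 8 peroxins -0.11 with 6 negative and 2 positive, against 0.00 for all probe sets. Both medians stayed negative under each of the 24 alternatives run on them. Averaged over genes on each array, the difference between PCN and corn oil was -0.25 for the metabolic genes (pooled SD between arrays 0.16) and -0.10 for the peroxins (pooled SD 0.15). The metabolic mean minus the peroxin mean ran from 0.02 to 0.20 in corn oil and from -0.14 to -0.01 after PCN. This contrast contains the 3 called genes, Crot (-1.34), Hao2 (-1.01) and Uox (-0.42), and the uncalled Dao (-1.08). It was not computed without them, so it does not show how the other metabolic genes stood against the peroxins. The group medians given above, -0.15 and -0.11, lay close together. The metabolic means by themselves overlapped between the treatments.

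The 5 peroxins of the second type had a median of 0.22 and the 3 metabolic genes -0.11, against -0.03 for all probe sets. The peroxin median was 0.037 after quantile normalization, 0.040 after cyclic loess and -0.062 after centring on the common probe sets, so its sign depended on the scaling. The metabolic mean minus the peroxin mean was 0.12 to 0.19 in corn oil and -0.41 to 0.06 after PCN, with PCN replicate 4 the lowest. Pex2, Pex7 and Pex16 were the 3 positive peroxins, and Pex5 and Pex26 the 2 negative ones.

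**Figure D4:**
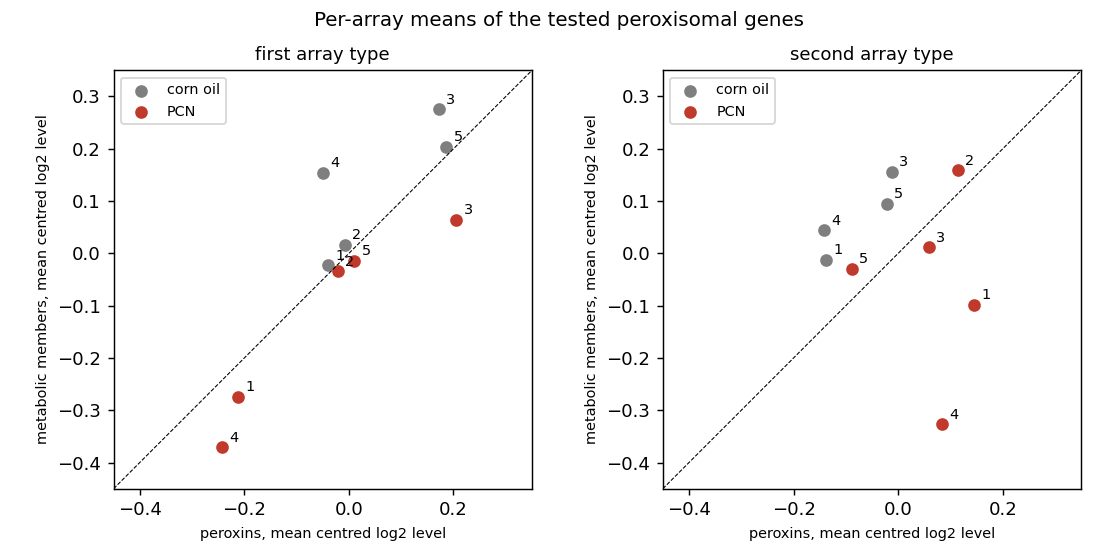
Mean centred log2 level of the peroxins (horizontal axis) against that of the metabolic genes (vertical axis) on each array, with the replicate number beside each point and a dashed line where both are equal. On the first array type (left, 8 peroxins and 21 metabolic genes) all corn oil arrays lie above the line and all PCN arrays below it, some by a narrow margin, and on the second (right, 5 and 3 genes) all 4 corn oil arrays lie above it and 3 of 5 PCN arrays below. The metabolic means of the first type include the called genes Crot, Hao2 and Uox and the uncalled Dao, and were not computed without them.

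Genes outside the 36 that were listed for the same organelle gave 0 calls. Not all of them are confined to peroxisomes. Of 32 genes listed as further peroxisomal enzymes, 21 were tested on the first type, with 5 lower and 0 higher at an unadjusted p under 0.05 (against 6.71% and 11% of all probe sets), 14 negative and a median of -0.12 (limma). The smallest p values were those of Acsf3, a malonyl-CoA synthetase that is mainly mitochondrial (-0.23, adjusted p = 0.137), and Acsl1, a long-chain acyl-CoA synthetase (-0.27, adjusted p = 0.207, limma). Cat, catalase, which removes the hydrogen peroxide made by the oxidases, differed by 0.01 ± 0.07 (SE, 95% interval -0.13 to 0.16, adjusted p = 0.928, limma). On the second type 4 were tested, with 1 lower and 0 higher at an unadjusted p under 0.05 (against 14.1% and 13.2% of all probe sets). The smallest p values there were those of Dhrs4, a dehydrogenase (-0.18, adjusted p = 0.172), and Isoc1 (0.18, adjusted p = 0.344, limma). Of 20 further genes of the peroxisomal membrane, division and biogenesis, 9 were tested on the first type with a median of -0.03. At an unadjusted p under 0.05 1 was lower and 0 higher (against 6.71% and 11% of all probe sets). The lower one was the acyl-CoA binding protein Acbd4 (-0.61 ± 0.16, adjusted p = 0.0678, limma), followed by the ubiquitin ligase Trim37 (0.20, adjusted p = 0.301). Of these genes 7 were tested on the second type, with 1 higher and 0 lower at an unadjusted p under 0.05 (against 13.2% and 14.1%). The higher one was the mitochondrial and peroxisomal ligase Mul1 (0.39, adjusted p = 0.0828, limma), followed by Acbd4 (-0.16, adjusted p = 0.220).

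PPARα targets outside peroxisomes gave 0 calls too, with 21 tested on the first type, a median of -0.02 and 1 lower at an unadjusted p under 0.05 (6.71% of all probe sets were), the mitochondrial dehydrogenase Acadm (-0.29, adjusted p = 0.188, limma). Next by p was Angptl4, a secreted inhibitor of lipoprotein lipase (-0.82, adjusted p = 0.439). On the second type 6 were tested and 1 was higher at an unadjusted p under 0.05 (13.2% of all probe sets were), the mitochondrial thiolase Acaa2 (0.54, adjusted p = 0.0716), which differed by 0.06 on the first, followed by the transcription factor Creb3l3 (0.12, adjusted p = 0.515, limma). Of 11 regulators of these genes tested on the first type 1 was lower and 0 higher (against 0.945% and 2.31% of all probe sets). Their median was 0.10, with 9 positive. On the second type 1 of 4 was lower and 0 higher (against 1.64% and 3.76%). At an unadjusted p under 0.05 those 4 counted 1 higher and 1 lower (against 13.2% and 14.1%, limma). The called genes were Rxrg on the first type and Ppargc1a on the second. Rxrg, a retinoid X receptor, was 10.36 ± 0.11 in corn oil and 9.48 ± 0.43 after PCN (SD, n = 5 each), 1.84-fold lower (a difference of -0.88 ± 0.18 SE, adjusted p = 0.0212, limma), with -0.16 (adjusted p = 0.185) on the second type. Ppargc1a, a coactivator of oxidative metabolism, was 7.72 ± 0.30 (SD, n = 4) in corn oil and 7.14 ± 0.14 (SD, n = 5) after PCN on the second type, a difference of -0.58 ± 0.13 (SE, adjusted p = 0.0285, limma). The call of Rxrg was lost without any one of corn oil replicates 4 and 5 or PCN replicates 1 and 3 (adjusted p 0.0501 to 0.0569). That of Ppargc1a was lost without any one of corn oil replicates 3, 4 and 5 or PCN replicates 1, 3 and 4 (adjusted p 0.0570 to 0.0930), and the term for the sets of arrays, without corn oil replicate 2, left Rxrg at an adjusted p of 0.0792. Ppara differed by 0.27 (adjusted p = 0.615), its partner Rxra by 0.38 (adjusted p = 0.638) and Nr1i2, the pregnane X receptor, by 0.11 (adjusted p = 0.815), none of them called. Without corn oil replicate 2 these differences were 0.052 for Ppara, -0.053 for Rxra and -0.072 for Nr1i2.

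Markers of other liver cells were read beside these results. Of all probe sets, 11% were higher and 6.71% lower at an unadjusted p under 0.05 on the first type (limma). On the second type the shares were 13.2% and 14.1%. Both red cell markers measured, Hbb and Alas2, were lower at an unadjusted p under 0.05 (log2 fold changes -0.39 and -0.59, adjusted p = 0.110 and 0.145, limma), with a mean level of 12.1 to 12.5 in corn oil and 11.5 to 12.4 after PCN. All 3 macrophage markers of the second type had positive log2 fold changes (median 0.40, 1 at an unadjusted p under 0.05), with a mean level of 8.27 to 8.99 in corn oil and 8.57 to 9.61 after PCN, as did all 3 on the first type (median 0.06, mean level 10.4 to 10.9 and 10.4 to 11.3). Cd163 (0.40, adjusted p = 0.136) and Cd5l (0.48, adjusted p = 0.213) had the smallest p values on the second, and Cd68 (0.26, adjusted p = 0.506) and Clec4f (0.06, adjusted p = 0.854) on the first. Of 6 stellate cell and fibroblast markers tested on the first type 0 were called, 3 were positive, and 2 were higher at an unadjusted p under 0.05, the collagens Col3a1 (0.43, adjusted p = 0.0824) and Col1a1 (0.41, adjusted p = 0.261, limma). The PCN arrays lay wholly above corn oil for Col3a1, and the mean level of the list was 8.36 to 8.84 in corn oil and 8.61 to 8.82 after PCN. The 1 such marker tested on the second type, Des, differed by -0.19 (adjusted p = 0.188).

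Endothelial markers gave 0 calls among 4 tested on the first type, led by Vwf (-0.12, adjusted p = 0.435) and Kdr (-0.14, adjusted p = 0.451, limma), with a mean level of 8.97 to 9.44 in corn oil and 8.95 to 9.27 after PCN. Of 3 tested on the second type 0 were called and 1 was higher at an unadjusted p under 0.05, Lyve1 (0.39, adjusted p = 0.0670), with Stab2 next (0.16, adjusted p = 0.354), and the mean level was 8.56 to 8.78 and 8.70 to 8.95. The neutrophil marker tested, S100a9, was higher at an unadjusted p under 0.05 (0.58, adjusted p = 0.153), and the 3 neutrophil markers measured averaged 6.20 to 6.36 in corn oil and 6.29 to 6.73 after PCN. The cholangiocyte markers Epcam and Spp1 differed by -0.07 and 0.04 (adjusted p = 0.834 and 0.864, limma), and their list averaged 7.03 to 7.31 and 7.12 to 7.27. The lymphocyte marker Ptprc differed by 0.04 on the first type (adjusted p = 0.847), where its list averaged 6.03 to 6.35 and 5.95 to 6.18. Cd3e, the lymphocyte marker of the second type, was lower at an unadjusted p under 0.05 (-0.15, adjusted p = 0.169), at 7.30 to 7.37 and 7.06 to 7.32. The part of these markers in the peroxisomal values was not tested.

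**Figure D5:**
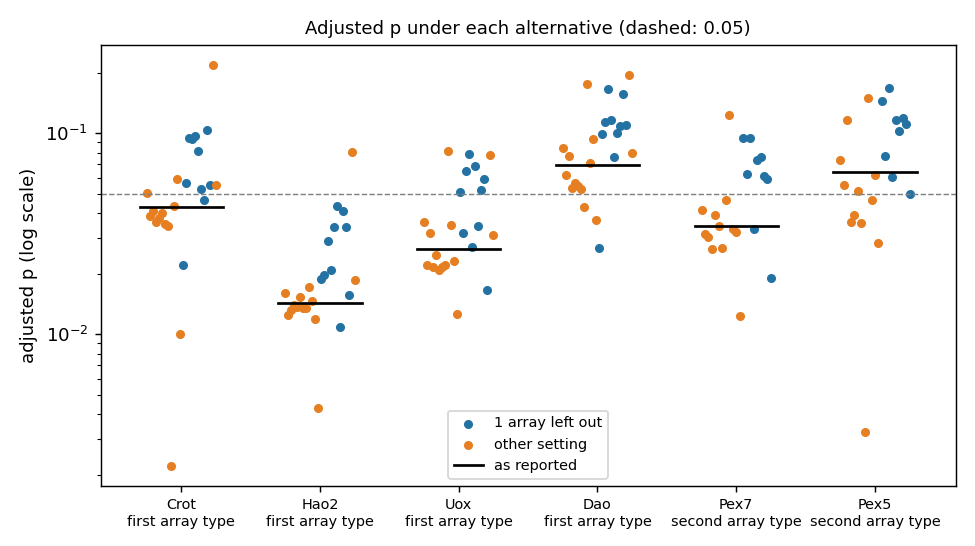
Adjusted p (log scale) of 6 gene comparisons under every alternative, with blue points for fits that left out 1 array, orange points for other settings, a black bar for the value reported and a dashed line at 0.05. Hao2 stays below the line in 23 of 24 alternatives, while Crot, Uox and Pex7 have points on both sides.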

How the data were processed

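Liver RNA was read on 2 Affymetrix array types. Expression was taken as deposited by the authors, as log2 values per probe set. The submitters' processing notes name MAS5 without a version, and how the values were summarised and normalised is not given in the sources used here. MAS5 signals are linear, whereas these values ran from 4.31 to 15.2 and from 3.10 to 14.1, from which the log base was inferred.

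The 57 control probe sets of each type and probe sets with a mean under the 30th percentile (6.67 and 5.51) were left out. The others, 11106 and 10693, were compared with limma 3.58.1 in R 4.3.3, each array type alone, with treatment as the only term, an intensity trend, two-sided tests and Benjamini-Hochberg adjustment over all probe sets of a type. The threshold was 0.05. The fit was tested on simulated data. Gene symbols came from the platform annotation, updated through RefSeq (GRCr8), with 12789 probe sets of the first type and 7570 of the second assigned to 1 gene. Arrays have no read depth, so their number limits the precision, and p-values measure the spread between the animals, which the labels call biological replicates.

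The genes, roles and gene lists were chosen with earlier results of these data known. The rule for naming took every peroxisomal gene of the 36 with a probe set, giving values on every array for those called. From each other list, on each array type, it took up to 4 called genes with the largest change, or, in lists with no call, the 2 of smallest p, and always Ppara, Rxra, Nr1i2, Cat, Cyp3a23-3a1 and Alas1 where measured (1 more gene of the rule is not reported here). The values of Pex5, Dao, Ehhadh and Ephx2 were added after their values were seen. Alternatives covered filters, scaling, variance models, array weights, the replicate block, a term for sets of arrays and leaving out each array. Centring on 100 probe sets that the array types share, and a term for arrays of wide or narrow distribution, were chosen after seeing the data. The latter term cut the arrays at the middle of the range of their standard deviations. That put PCN replicate 1 (1.986) with the narrower arrays, unlike the sets described above. This term and the term for sets of arrays were run on the first type alone.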

Additional observations from a re-analysis of the deposited data

Results flagged for a closer look

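Single arrays far from the rest of their group were looked for in 76 groups of arrays, and 6 were found, where chance alone gives about 1 in 20. All 6 were on the first array type and 3 of them were corn oil replicate 2. That array read 7.99 for Acox3 where the other corn oil arrays read 9.89 to 10.15, 11.53 for Abcd3 where they read 9.06 to 9.65, and 6.89 for Agps where they read 7.13 to 7.21. The others were Amacr in corn oil replicate 5 (13.1 against 12.64 to 12.76), Pecr in corn oil replicate 3 (13.0 against 12.62 to 12.70) and Acox2 in PCN replicate 2 (10.95 against 11.66 to 11.81). None of these 5 enzymes and the transporter Abcd3 was called with all arrays or without corn oil replicate 2 alone, and no explanation was tested.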

How the results depend on the processing

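With 5 arrays or fewer per group, most calls among the peroxisomal genes sat close to the threshold. Over 862 pairs of gene and alternative, 781 kept their side and direction, 29 lost a call, 23 gained one, 0 reversed a called value and 29 changed sign without a call, in 12 combinations of gene and array type. The number called on the first type was 5 with centring on the shared probe sets, 6 with array weights, and 1 to 3 when single arrays were left out. It was 2 (Hao2 and Uox, without Crot) with the term for arrays of wide or narrow distribution. With the term for sets of arrays and without corn oil replicate 2 it was 1 (Acox2, -0.67, adjusted p = 0.0296, limma). In that fit PCN replicate 2, which read far below the other PCN arrays for Acox2 (10.95), is the only PCN array of the narrower set. Corn oil replicate 1, the highest corn oil array for Acox2 (12.28), is the only corn oil array of the wider set. The part of either array in that call was not tested. On the second type the number called was 3 after trimmed mean scaling, with or without a pseudocount of 16, 2 after quantile normalization, 5 after centring, 2 without an intensity trend, 3 with array weights and 0 to 2 when single arrays were left out. The second-type median of the metabolic genes was -0.27 after quantile normalization, -0.31 after cyclic loess and -0.39 after centring, and -0.21 to 0.033 when single arrays were left out. That of the peroxins was 0.037, 0.040 and -0.062 under those settings. Other list medians that moved were the other oxidases (-0.78) and the further membrane and biogenesis genes (-0.14) with the term for sets of arrays, the pregnane X receptor targets with array weights (0.85), and on the second type the further enzymes (-0.18), the membrane and biogenesis genes (-0.29, and -0.13 after quantile normalization) and the regulators (-0.47) after centring. Centring by itself moved the median of all probe sets of the second type to -0.31. Causes of the other changes were not tested.

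Replicate numbers did not pair the arrays: deviations of same-numbered arrays correlated at 0.21, -0.15, 0.28, -0.30 and 0.06 on the first type and at 0.04, 0.20, 0.02 and 0.09 on the second. With the replicate block 3 genes of the first type passed (Crot, Ehhadh and Hao2) and 1 of the second (Crot), the calls of Uox (-0.42, adjusted p = 0.0813) and Pex7 (0.52, adjusted p = 0.123) were not made, and over all probe sets calls went from 256 higher and 105 lower to 177 and 62, and from 402 and 175 to 163 and 40. By these deviations, PCN replicates 1 and 3 of the first type and PCN replicate 3 of the second correlated best with the corn oil array of their own number. The other PCN arrays that had such a partner did not.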
